A study of Homo sapiens with 2 samples.

Results

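The HOXB cluster is the group of 10 HOX genes on human chromosome 17, here HOXB1, HOXB2, HOXB3, HOXB4, HOXB5, HOXB6, HOXB7, HOXB8, HOXB9 and HOXB13. Its members were taken as the CpGs between positions 46605888 and 46806112 of hg19 that had at least 1 read in both libraries of whole genome bisulfite sequencing (WGBS). This gave 3341 CpGs out of 14699127 such CpGs in the genome, and 69.3% of the 4819 CpGs that the reference holds in the interval. All 10 genes lie on the minus strand and follow each other from HOXB1, the anterior end, to HOXB13, the posterior end. The CpGs were described by gene body, by promoter (1 kb either side of the gene start), by the intergenic pieces between protein-coding genes, and by 1-kb tiles.

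HOX genes encode homeodomain transcription factors that give cells their position along the head-to-tail axis of the embryo, and their order in a cluster follows the order of their domains along that axis. Each consists of a first coding exon and a second coding exon that holds the homeobox, the stretch that encodes the DNA-binding homeodomain. Their CpG-rich starts lie in broad valleys of low methylation in many cell types, where Polycomb or active chromatin is found. DNMT3A is a de novo DNA methyltransferase, which adds methyl groups to CpGs that carry none.

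Both libraries came from HEK293T cells, a human embryonic kidney line grown in culture, and each group held 1 library. The title alone separated the groups, since both samples carry the same treatment text in the labels. That text names infection by dCas9-SunTag-DNMT3A for 30 days, also for Neg, which the study describes otherwise. The library dCas9+3A+HOXA5 came from cells with 3 components delivered by lentivirus, namely a Cas9 that no longer cuts DNA and carries a chain of SunTag epitopes, DNMT3A joined to an antibody fragment that recognises these epitopes, and a guide RNA against HOXA5, a gene of the HOXA cluster on another chromosome. Fluorescent cells were purified, kept for 30 days and purified again; they are a sorted population, and the labels name no clone. The library Neg is the negative control, which the study describes as cells without transduction, so that the pair of libraries differs in the fusion protein, the guide, the transduction, the sorting and whatever else separated the cultures, and these cannot be told apart here. No library with DNMT3A but without a guide was used here. With 1 library per group, every test sets one library against the other and does not reach the conditions, and reads from the same fragment are not independent, so that p-values and intervals cover counting error only.

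In WGBS, unmethylated cytosines are read as T and methylated ones as C, and the methylation level of a CpG is the deposited fraction of reads with C. The level of a gene or tile was the mean over its CpGs, given as a percentage with the SD over CpGs. A feature was called higher or lower where its level differed by more than 20 percentage points and its summed reads differed with an adjusted p (padj) under 0.01. This p came from Fisher's exact test, two-sided, with Benjamini-Hochberg adjustment over all features of that kind in the genome. The listed CpGs of the interval held a mean of 4.37 reads in Neg and 3.21 reads in dCas9+3A+HOXA5, and 407 CpGs had at least 5 reads in both. The targeted gene HOXA5, over its body, had a level of 3.91% in Neg, and of 59.5% in dCas9+3A+HOXA5. At CpGs of the mitochondrial genome, which is nearly free of methylation, 6.98% of reads were C in Neg against 4.25% in dCas9+3A+HOXA5. This share also counts cytosines that bisulfite left unconverted, and the part of conversion in the HOXB differences was not tested.

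Across the interval, the level of the 3341 CpGs was 51.0% (SD 43.7) in Neg against 71.4% (SD 42.1) in dCas9+3A+HOXA5, a difference of 20.3 percentage points. With a minimum of 3 and of 5 reads per CpG it was 18.3 and 14.3 points, under the limit of 20. The summed reads gave 8006 methylated of 15452 in Neg and 7896 of 10839 in dCas9+3A+HOXA5 (p = 5.86e-264, two-sided Fisher's exact test). Levels were higher in dCas9+3A+HOXA5 over much of the genome, by a median of 4.17 points per gene body, 2.54 per promoter, 5.84 per intergenic piece and 4.77 per 1-kb tile, and the HOXB values are read against these.

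**Figure D1:**
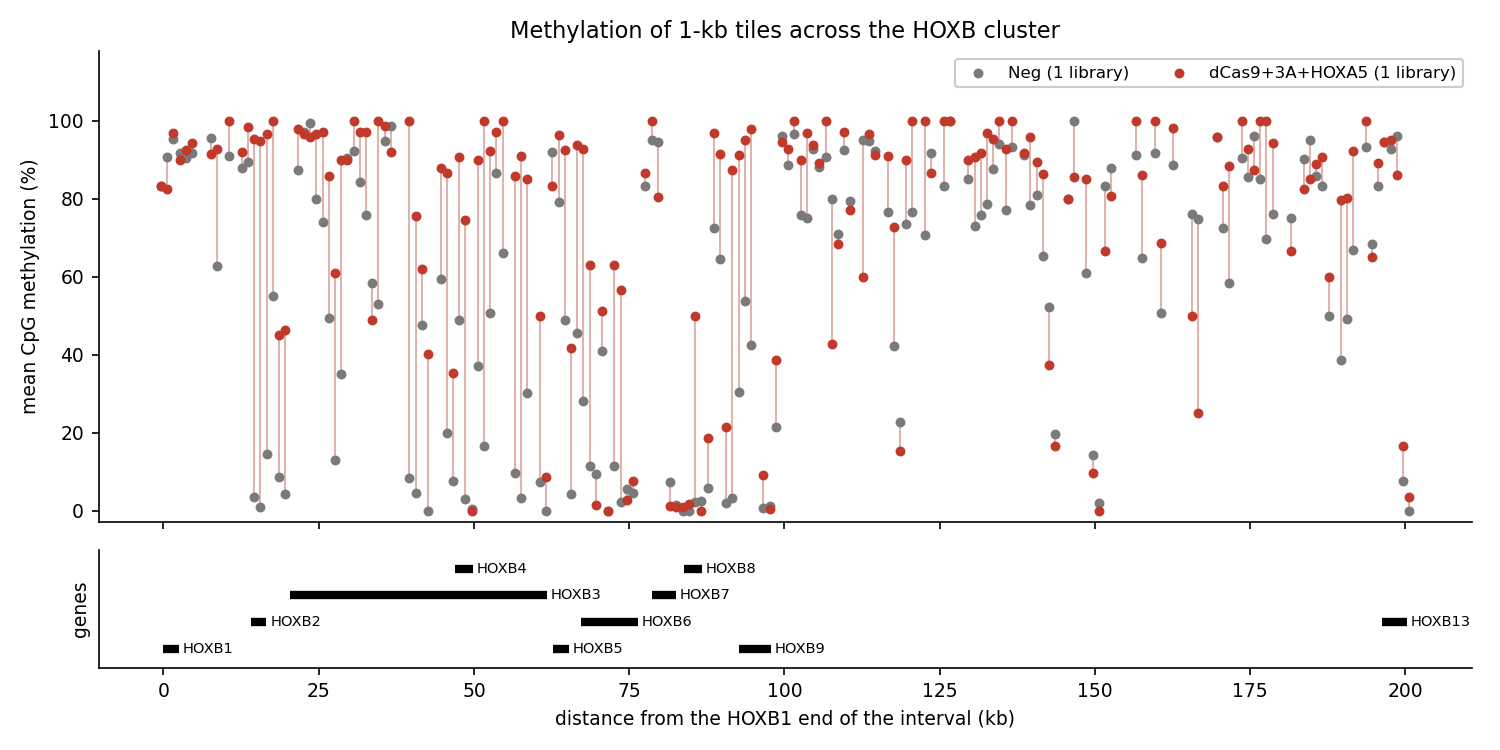
Mean CpG methylation in percent of the 165 tested 1-kb tiles (points, 1 library per group; lines join the 2 libraries) against distance in kb from the HOXB1 end of the interval, with the canonical transcripts of the 10 genes as bars below. Tiles near HOXB1 and between HOXB9 and HOXB13 are mostly high in both libraries, and the long red lines crowd between HOXB2 and HOXB6, where 26 of 58 tiles were called higher.

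Of 165 HOXB tiles tested, 37 (22.4%) were called higher and 0 lower, beside 1.43% higher and 0.391% lower of all tiles in the genome. At an unadjusted p under 0.05 by the same Fisher's exact test, 79 of the 165 tiles (47.9%) differed, beside 18.4% of the tiles in the genome. Among the 42 HOXB tiles under 20% in Neg, 19 (45.2%) were called higher, beside 3.51% of such tiles in the genome. The fate of these 42 tiles was divided: 19 stayed under 20% in dCas9+3A+HOXA5, 14 came to lie between 20 and 80%, and 9 reached at least 80%. Of 97043 tiles under 20% in Neg in the genome, 70009 stayed under 20%, 24742 came to lie between, and 2292 reached at least 80%. Of the 58 HOXB tiles that stood between 20 and 80% in Neg, 18 were called higher. The share of such tiles called higher in the genome was not computed, so this count has no background beside it. None of the 65 tiles at or above 80% in Neg was called in either direction, and a rise of 20 points was not possible there.

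Most called tiles lay at the anterior side of the cluster, by segments whose borders were drawn after the values were seen, so that they are a description; the 2 tiles that cross the ends of the interval were left out. From HOXB2 to HOXB6, 26 of 58 tiles were called higher, and of the 26 tiles there under 20% in Neg, 17 were. From the end of HOXB6 to HOXB9, 6 of 19 tiles were called higher, and of 11 low tiles 2 were, with 8 staying under 20%. Between HOXB9 and HOXB13, 4 of 78 tiles were called higher and 0 of 4 low tiles. In the stretch of HOXB1, 1 of 8 tiles was called higher and no tile was under 20% in Neg.

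The 5 called tiles with the largest gains rose from near 0 to near full methylation, and they lay in 4 places. In HOXB2, the tile chr17:46621001-46622000 held 2 methylated reads of 148 in Neg and 132 of 142 in dCas9+3A+HOXA5, with levels of 1.04% and 94.96%. The tile before it, chr17:46620001-46621000, rose from 3.55% to 95.4% over 70 CpGs. Within the long intron region of HOXB3, tile chr17:46645001-46646000 rose from 8.32% to 100%, with 48 of 48 reads methylated in dCas9+3A+HOXA5. Tile chr17:46663001-46664000, also inside HOXB3, rose from 3.28% to 90.9% over 33 CpGs. On the 3′ side of HOXB9, tile chr17:46697001-46698000 rose from 3.16% to 87.3% over 23 CpGs. Adjusted p-values for these tiles by Fisher's exact test were between 1.99e-88 and 1.38e-13. With a minimum of 3 reads in both libraries, both tiles inside HOXB3 had too few CpGs to be tested. With a minimum of 5 reads, none of the 5 tiles could be tested. There was no called loss to describe.

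Low tiles were also counted by their distance from the gene starts, and the difference between near and far tiles was not tested. Within 1 kb of a canonical HOXB start, 3 of 13 low tiles were called higher and 10 stayed under 20%. Over 1 kb from every such start, 16 of 29 low tiles were called higher and 9 stayed under 20%. The genome shares of near and of far low tiles were not computed, so these counts have no matching background. In the genome, 1.01% of low windows of 250 bp either side of starts were called higher, beside 3.51% of all low 1-kb tiles. These windows and tiles differ in size, so the shares are not a like comparison.

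At the level of single CpGs, 1296 of the HOXB CpGs stood at 20% or less in Neg, and 499 of these (38.5%) stood at 80% or more in dCas9+3A+HOXA5, beside 22.2% of such CpGs in the genome. With a minimum of 5 reads in both libraries, these were 24 of 124 low CpGs (19.4%), beside 11.1% in the genome. The opposite change, from at least 80% to at most 20%, was seen at 57 of 1360 CpGs (4.19%), beside 7.05% in the genome. With a few reads per CpG, single CpGs cross these limits by sampling alone, so the shares are set beside those of the genome and were not tested.

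**Figure D2:**
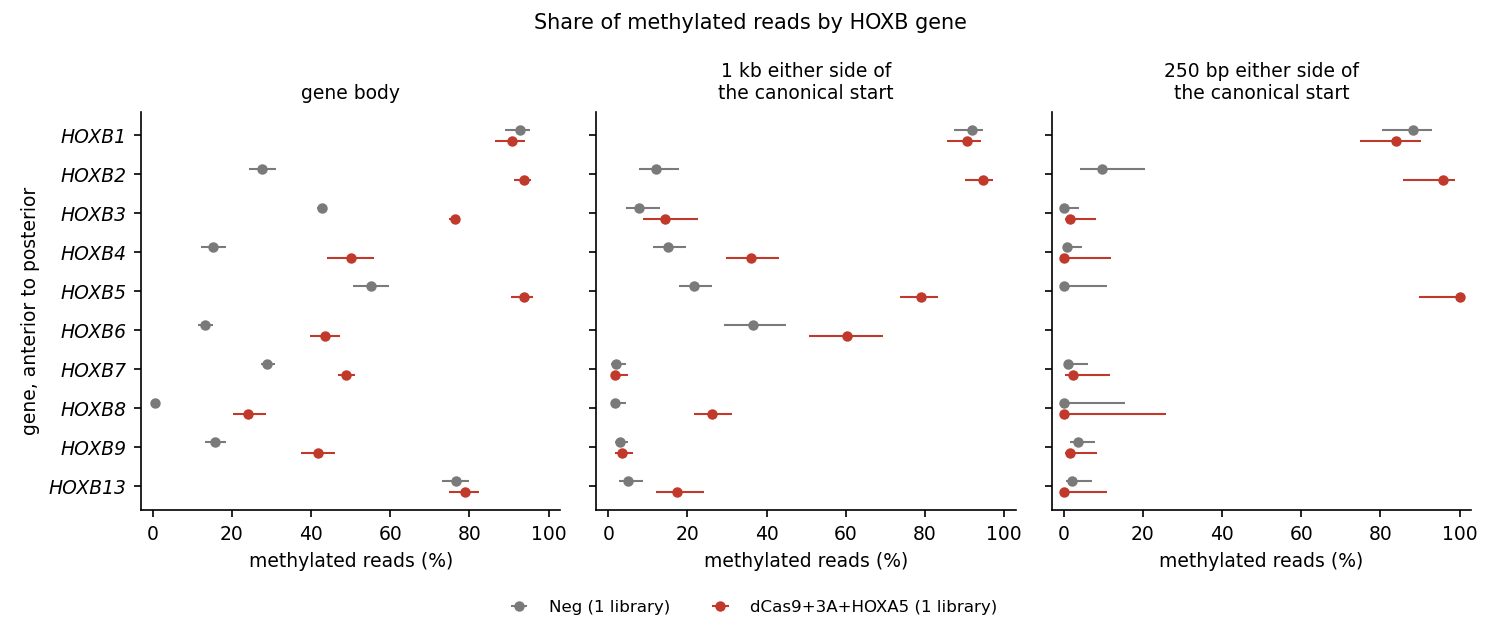
Share of methylated reads in percent (points) with 95% Wilson intervals (bars, counting error only) for each HOXB gene in order from anterior to posterior, over the gene body, 1 kb and 250 bp either side of the canonical start, with Neg in grey and dCas9+3A+HOXA5 in red (1 library each). The red point of HOXB2 lies near 100% in all 3 panels, and that of HOXB5 near 100% over the body and the 250 bp and lower, at 78.9%, over the 1 kb; HOXB6 had too few covered CpGs for the panel on the right.

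Of the 10 gene bodies, 6 were called higher, namely HOXB2, HOXB3, HOXB4, HOXB5, HOXB6 and HOXB8, beside 3.81% of 44567 gene bodies in the genome, and 0 were called lower, beside 0.536%. The bodies are not independent, because the annotated span of HOXB3 contains HOXB4 and HOXB5 and most of HOXB6, and that of HOXB7 contains HOXB8 and HOXB9. Of the 5 genes with CpGs that belong to no other HOXB span, 2 were called higher, HOXB2 and HOXB3.

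HOXB1, the most anterior member, which helps to specify the hindbrain, was methylated in both libraries. Its body held 231 methylated of 249 reads in Neg and 209 of 230 in dCas9+3A+HOXA5, with levels of 92.1% and 93.2% (SD 19.7 and 17.7 over 61 CpGs, padj = 0.655 in Fisher's exact test). Its methylated share changed by -1.90 points, with a 95% Newcombe interval from -7.04 to 3.07. Within 250 bp of its start the level was also high, 85.6% in Neg and 86.1% in dCas9+3A+HOXA5, so that HOXB1 was the only tested member with a start above 20% in Neg.

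HOXB2, a hindbrain regulator whose gene lies next to HOXB1, showed the largest gain of the members in the body and the promoter. Its body held 183 methylated of 663 reads in Neg and 468 of 499 in dCas9+3A+HOXA5, and the level rose from 23.8% to 95.9% (SD 40.6 and 14.4 over 168 CpGs, padj = 5.86e-125 in Fisher's exact test). Over the canonical transcript, which leaves out a methylated stretch at the 3′ end, the level rose from 2.04% to 95.8%. First exon, intron and second exon were alike, at 2.30%, 1.25% and 2.14% in Neg and at 98.5%, 93.5% and 95.5% in dCas9+3A+HOXA5. The promoter rose from 12.7% to 95.4% (82.7 points, padj = 4.96e-56 in Fisher's exact test), and the 250 bp either side of the start from 8.27% to 92.9%. Between 250 bp and 1 kb upstream, the 5 covered CpGs, with 16 reads in each library, stood at 85.0% in Neg and at 100% in dCas9+3A+HOXA5. From 1 to 3 kb upstream, 21 CpGs stood at 8.94% and 50.8%.

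HOXB3, the longest member, has several annotated starts, and its body covers 1164 CpGs. The level of that span rose from 42.2% to 72.8% (padj = 8.10e-228 in Fisher's exact test), and over the 737 CpGs outside the other HOXB spans it rose from 53.6% to 84.5%. The introns, the first of which holds HOXB4, differed in level, at 33.6% and 77.2% in the first and 65.3% and 98.2% in the third. Its coding exons were methylated in both libraries, the first at 99.4% and 97.7% and the homeobox exon at 94.7% and 97.7%. The annotated promoter, at the far start, stood at 13.2% and 27.6%, 14.5 points apart and under the limit of 20 (padj = 5.57e-04 in Fisher's exact test), whereas its share of methylated reads differed by 25.7 points. The start of the canonical transcript stayed unmethylated, with 0 of 97 reads in Neg and 1 of 66 in dCas9+3A+HOXA5 within 250 bp. Between 250 bp and 1 kb upstream of it, the 2 covered CpGs stood at 100% in both libraries. From 1 to 3 kb downstream the values were 27.8% in Neg against 87.5% in dCas9+3A+HOXA5 over 8 CpGs.

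HOXB4, known for its role in blood stem cells, was split between its exons. The whole body rose from 13.9% to 51.0% (75 of 496 reads against 136 of 272, padj = 8.89e-23 in Fisher's exact test). The first exon stood at 0.463% in Neg and at 0% in dCas9+3A+HOXA5, where 0 of 41 reads allow a share of up to 7.32%. The second exon stood at 23.1% and 86.2%, and its coding part at 2.52% and 90.2%. The promoter was called higher, from 15.5% to 37.6% (padj = 9.88e-06 in Fisher's exact test), but the CpGs within 250 bp of the start stood at 0.543% and 0%. The gain of the promoter lay upstream, where the CpGs between 250 bp and 1 kb before the start stood at 36.6% in Neg and at 89.7% in dCas9+3A+HOXA5. With a minimum of 3 reads, 15 CpGs of the promoter were left, and it was not called (19.5 points, padj = 0.907 in Fisher's exact test).

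HOXB5, a regulator in vascular and enteric nervous tissue, gained methylation in its body and promoter. The body rose from 60.8% to 93.6% (245 of 444 reads against 283 of 302, padj = 4.28e-32 in Fisher's exact test). Its promoter rose from 22.4% to 71.2% (padj = 2.59e-44 in Fisher's exact test). Within 250 bp of the start, 8 CpGs were covered, all of them downstream and inside the coding part of the first exon. None lay in the untranslated stretch next to the start. At these CpGs, 0 of 31 reads were methylated in Neg against 34 of 34 in dCas9+3A+HOXA5. The 95% Wilson intervals of these shares ran from 0 to 11.03% and from 89.8 to 100%. Upstream, between 250 bp and 1 kb, the level was 6.82% in Neg against 43.8% in dCas9+3A+HOXA5 with an SD of 48.0 over CpGs. The plot of single CpGs shows that the low CpGs of this stretch in dCas9+3A+HOXA5 were those nearest to the start.

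HOXB6 resembled HOXB4 in its exons. Its body rose from 12.5% to 39.1% (161 of 1224 reads against 301 of 692, padj = 1.29e-46 in Fisher's exact test). The first coding exon stood at 13.1% in Neg and at 1.74% in dCas9+3A+HOXA5, with 38 of 279 and 3 of 160 methylated reads. The homeobox exon's coding part stood at 7.95% in Neg and at 84.2% in dCas9+3A+HOXA5, with 11 of 159 and 26 of 30 methylated reads. With a minimum of 3 reads per CpG the body was 17.1 points apart and no longer called. Neighbouring exons of the gene lay on opposite sides of the Neg values. Its promoter was at 24.2% and 38.4% and was not called (padj = 0.00459 in Fisher's exact test), although its methylated share differed by 23.8 points. Only 1 CpG within 250 bp of the start was covered, too few for a test.

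**Figure D3:**
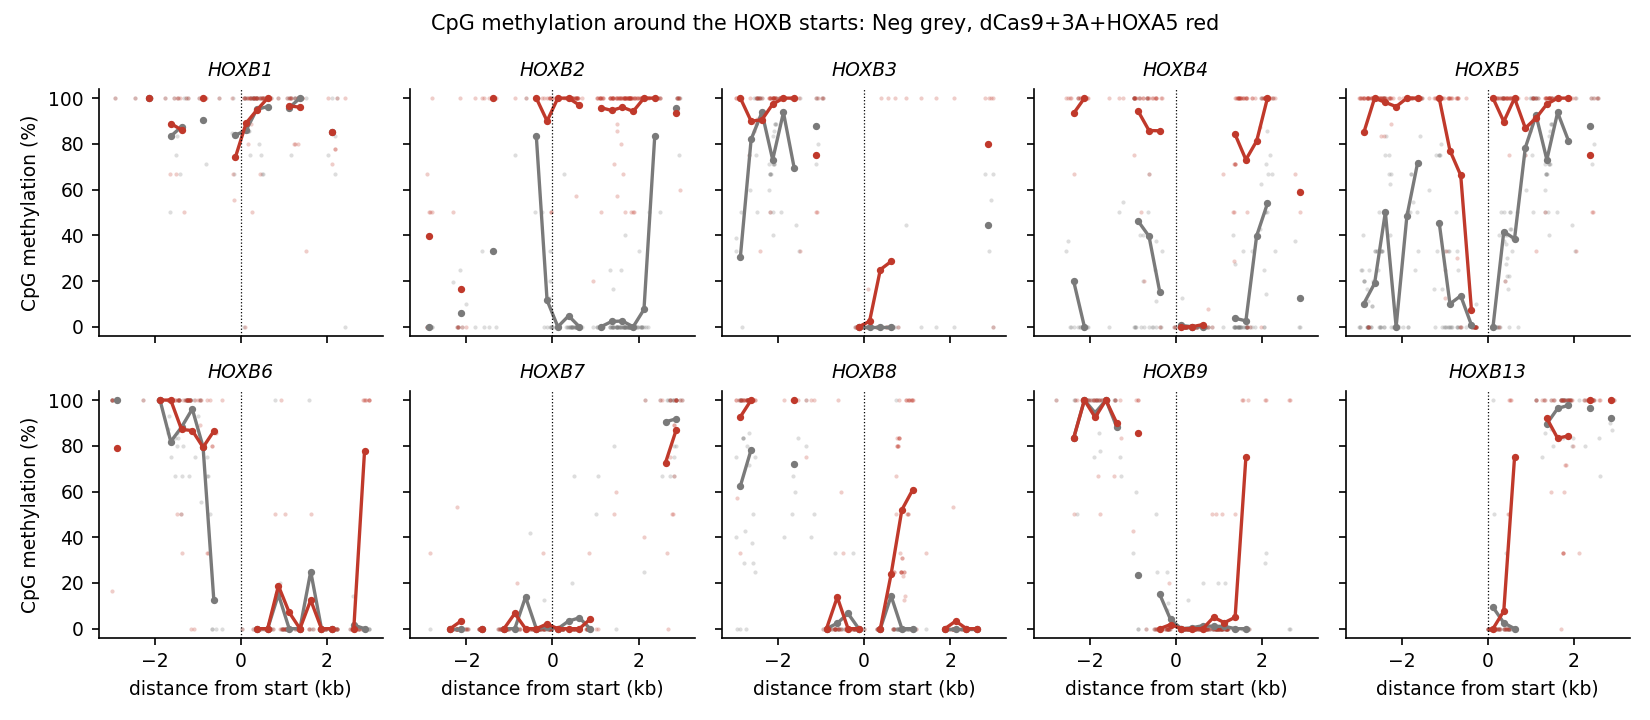
Methylation of single CpGs in percent (small dots) and means of 250-bp bins with at least 3 CpGs (joined points) within 3 kb of the canonical start of each HOXB gene, with Neg in grey and dCas9+3A+HOXA5 in red (1 library each); positive distances in kb run into the gene. The HOXB2 and HOXB5 panels show red points near 100% downstream of the start. In HOXB3, HOXB4, HOXB8 and HOXB9 the red and grey points meet near 0 at the start and part in places farther away. In HOXB7 they stay close throughout the low stretch.

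HOXB7, whose annotated span reaches a distant upstream start past HOXB9, was not called in any window at the minimum of 1 read, although its span was with a minimum of 5 reads (25.3 points over 75 CpGs). The span stood at 29.2% in Neg and at 45.4% in dCas9+3A+HOXA5, 16.1 points apart. The level of the canonical transcript was 47.1% and 39.4%, whereas 108 of 238 and 158 of 302 of its reads were methylated. By the share of methylated reads, the transcript was 6.94 points higher in dCas9+3A+HOXA5 (padj = 0.220 in Fisher's exact test). Its start was unmethylated in both libraries, with 1 of 89 reads in Neg and 1 of 44 in dCas9+3A+HOXA5 within 250 bp, and the promoter around it stood at 2.07% and 1.27%. The promoter at the distant start was methylated in both, at 89.6% and 90.7%. Its share of methylated reads was 9.31 points higher in dCas9+3A+HOXA5 (499 of 657 and 295 of 346 reads, padj = 0.00813 in Fisher's exact test). The coding part of the homeobox exon was at 100% in Neg and at 79.97% in dCas9+3A+HOXA5, with 19 of 19 and 54 of 70 methylated reads.

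HOXB8, known from the hematopoietic and nervous systems, was the least methylated body in Neg. It held 3 methylated reads of 455 in Neg and 97 of 402 in dCas9+3A+HOXA5, and the level rose from 1.29% to 21.6%. The difference of 20.3 points lay just inside the limit of 20 (padj = 2.25e-29 in Fisher's exact test), and without CpGs that show a sign of a C-to-T variant it was 19.97 points, outside it. Its promoter rose from 2.64% to 25.5% (padj = 9.74e-15 in Fisher's exact test). The gain lay in the first coding exon and the intron, at 3.03% and 0% in Neg and at 47.4% and 56.4% in dCas9+3A+HOXA5, and the homeobox exon's coding part stood at 0% and 3.81%. This order was the opposite of that in HOXB4 and HOXB6. Within 250 bp of the start, 0 of 21 reads in Neg and 0 of 11 in dCas9+3A+HOXA5 were methylated, which allow shares of up to 14.3% and 27.3%.

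HOXB9, which acts in the thoracic skeleton, lay just outside the limit. Its body stood at 15.8% in Neg and at 35.6% in dCas9+3A+HOXA5, with 106 of 677 and 208 of 499 methylated reads (19.8 points, padj = 9.35e-22 in Fisher's exact test). It was past the limit as a share of methylated reads (26.0 points), without CpGs that show a sign of a C-to-T variant (20.02 points), and with a minimum of 5 reads, which left 7 CpGs (44.6 points, padj = 5.31e-04 in Fisher's exact test). The first exon held 1 methylated read of 223 in Neg and 0 of 126 in dCas9+3A+HOXA5. The second exon stood at 47.9% and 95.4%, with 97 of 195 and 189 of 204 methylated reads. Its promoter stood at 2.76% and 4.82% (padj = 0.992 in Fisher's exact test).

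HOXB13, the most posterior member, which acts in the prostate and the tail bud and lies apart from the others, was not called. Its body stood at 72.5% in Neg and at 71.3% in dCas9+3A+HOXA5 (padj = 0.559 in Fisher's exact test), and its methylated share was 2.28 points higher in dCas9+3A+HOXA5 with a 95% Newcombe interval from -2.93 to 7.32. The first exon was low in both libraries, at 5.55% and 12.1%, and the second was high, at 96.3% and 91.5%. The coding part of the second exon stood at 98.2% and 80.1%, with 114 of 116 and 68 of 82 methylated reads. The promoter stood at 5.57% and 12.8% and was not called (padj = 0.00305 in Fisher's exact test), and its methylated share differed by 12.3 points with a 95% Newcombe interval from 5.88 to 19.5. No read within 250 bp of the start was methylated in dCas9+3A+HOXA5 (2 of 98 in Neg, 0 of 31 in dCas9+3A+HOXA5).

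**Figure D4:**
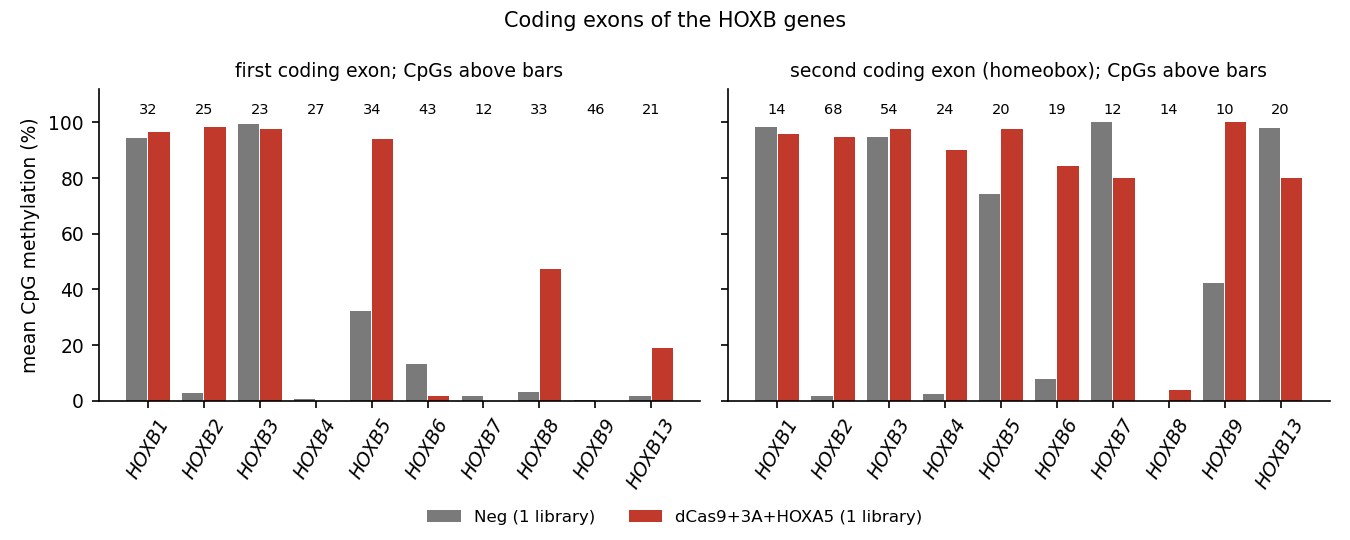
Mean CpG methylation in percent of the first and the second coding exon of each HOXB gene (bars, 1 library per group, axis from 0), with the number of covered CpGs above each pair. In dCas9+3A+HOXA5, HOXB1, HOXB2, HOXB3 and HOXB5 are high in both exons. HOXB4, HOXB6, HOXB7 and HOXB9 are high there in the second exon and near 0 in the first, and HOXB8 shows the opposite order. HOXB1 and HOXB3 in both exons and HOXB7 in the second are also high in Neg. The second exon of HOXB9 rests on 14 reads in dCas9+3A+HOXA5.

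By the promoters of 1 kb either side, 4 of 10 members were called higher, HOXB2, HOXB4, HOXB5 and HOXB8, beside 2.31% of 53244 promoters in the genome. Of the 6 members whose promoters were under 20% in Neg, 3 were called higher, HOXB2, HOXB4 and HOXB8, beside 1.56% of such promoters in the genome. None was called lower, beside 0.588% of promoters in the genome. With 1 kb either side of the canonical start, the same 4 were called higher, beside 2.27% in the genome, and 0 lower, beside 0.606%. In the narrower window of 250 bp around the canonical start, which was added after the values were seen, 2 of 9 tested members were called higher, HOXB2 and HOXB5, beside 1.32% of such windows in the genome and 1.01% of those under 20% in Neg; 0 were lower, beside 0.82%. Of the 8 members under 20% in Neg in that window, 6 stayed under 20% in dCas9+3A+HOXA5. With 6 to 23 CpGs and 11 to 66 reads in dCas9+3A+HOXA5, a small gain at these 6 starts was not detectable at this depth. The 95% Newcombe interval of the difference in share reached 5.20 points for HOXB9, 8.10 for HOXB3, 9.08 for HOXB13, 10.7 for HOXB7, 11.3 for HOXB4 and 25.9 for HOXB8.

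Of the 5 pieces between protein-coding genes inside the interval that could be tested, some of which hold noncoding genes, 1 was called higher, beside 3.31% of 14749 pieces in the genome, and 0 lower, beside 0.183%. That piece, between HOXB2 and HOXB3 and inside the span of HOXB-AS1, rose from 18.1% to 65.8% (26 of 166 reads against 99 of 150, padj = 2.71e-19 in Fisher's exact test). The piece between HOXB1 and HOXB2 stood at 84.5% and 92.5%, and that between HOXB6 and HOXB7 at 81.3% and 88.5%. The longest piece, from HOXB7 to PRAC1, held 958 CpGs and stood at 70.1% and 77.4%, 7.33 points apart and close to the median of all pieces. Between PRAC1 and PRAC2 the level was lower in dCas9+3A+HOXA5, at 74.2% and 56.2% over 16 CpGs, which did not pass the limit on the difference, whereas by the share of methylated reads the piece was called lower, by -31.9 points (padj = 0.00596 in Fisher's exact test).

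The antisense genes of the cluster run through the same DNA, so their values share CpGs with the HOXB genes. HOXB-AS1, whose start lies inside HOXB2, was called higher in its promoter, from 4.19% to 95.02% over 105 CpGs, and in its body, from 38.7% to 88.7%. HOXB-AS3 was called higher in its body, from 43.1% to 73.1%, and not in its promoter, at 88.1% and 97.8%. The promoter of HOXB-AS2 was called higher, from 56.4% to 92.9% over 14 CpGs. The body of ENSG00000257178, a long noncoding gene between HOXB4 and HOXB5, was called higher, from 69.8% to 97.7%. HOXB-AS4, LINC03057, LINC02086, PRAC1, PRAC2, MIR196A1, MIR3185, RPL9P28, COX6B1P2 and ENSG00000244559 were not called in any tested window. Nor were the flanking genes SKAP1, whose body stood at 74.3% and 86.4%, and TTLL6, whose body stood at 74.3% and 78.7%.

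The guide against HOXA5 has no close match in the cluster. Among 20-base sites followed by NGG on either strand, the nearest had 6 mismatches, and there were 3 such sites and 17 sites with 7. The number of such sites in other sequence of this length was not computed, so these counts have no background. The 3 sites were read from GRCh37, which has the coordinates of hg19, and are given from 5′ to 3′ beneath the guide, with mismatched bases in capitals, since 1 of them lies at the start of HOXB2.
HOXA5 guide: ggctgtcgctgccgggcgag
HOXB2 site, chr17:46622274-46622293, plus strand: ggctTtcAAtgGTgggGgag
HOXB9 site, chr17:46702809-46702828, plus strand: AgctgGGgcCTccgggAgag
HOXB7 site, chr17:46687310-46687329, minus strand: ggctCtAgAGgccTggcgGg

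The HOXB2 site lies in the 5′ UTR of the first exon of HOXB2, and counted from 1 at the 5′ end of the guide it carries the substitutions G5T, G8A, C9A, C12G, C13T and C17G. The 42 CpGs in the 1 kb around it stood at 4.35% in Neg and at 96.6% in dCas9+3A+HOXA5. The HOXB9 site lies in the intron of HOXB9 and carries G1A, T6G, C7G, T10C, G11T and C17A, and the 70 CpGs around it stood at 0.857% and 2.86%. The HOXB7 site lies in the intron of HOXB7 and carries G5C, C7A, C9A, T10G, G14T and A19G, with 9.84% and 7.17% over 20 CpGs. The levels around these sites differed, and a link between mismatches and level was not tested. Whether the guide met any of them was not measured.

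**Figure D5:**
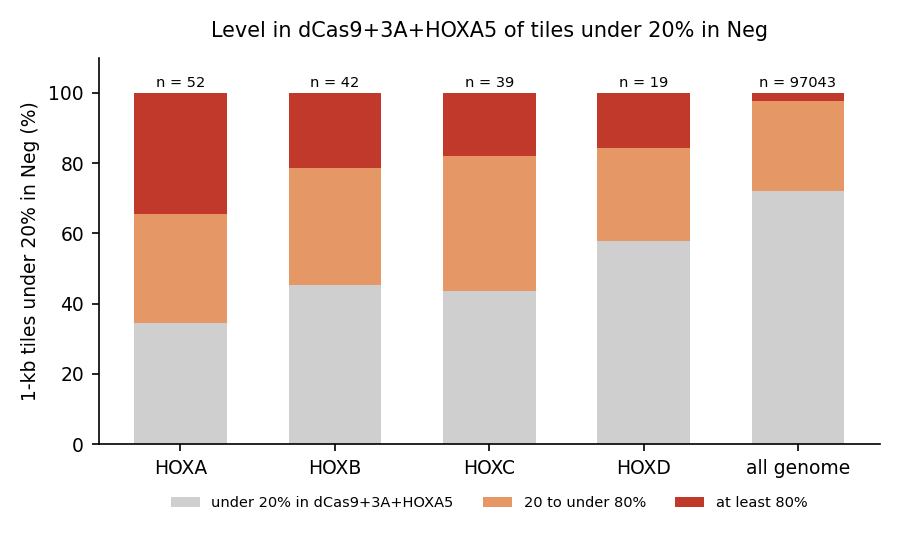
Percentage of the 1-kb tiles under 20% in Neg that stood under 20%, between 20 and 80%, or at or above 80% in dCas9+3A+HOXA5, for each HOX cluster and for the genome (stacked bars, 1 library per group, number of tiles above). In HOXB 9 of 42 low tiles reached at least 80%, and in the genome 2292 of 97043 did.

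The other HOX clusters serve as the nearest comparison, with the guide target inside HOXA. The level of all shared CpGs was 28.0% in Neg against 55.4% in dCas9+3A+HOXA5 in HOXA, 41.5% and 64.5% in HOXC, and 60.8% and 70.1% in HOXD, against 51.0% and 71.4% in HOXB. Of the low tiles, 31 of 52 were called higher in HOXA, 19 of 42 in HOXB, 16 of 39 in HOXC and 6 of 19 in HOXD, and the difference between clusters was not tested. The windows of 250 bp around low or high starts were called higher for 3 of 11 genes in HOXA, 2 of 9 in HOXB, 2 of 8 in HOXC and 1 of 8 in HOXD. Among 20 partners and regulators of HOX genes, such as MEIS, CDX and retinoic acid receptor genes, the bodies of 19 could be tested. Of these bodies, 1 was called higher, that of the guide's target HOXA5, and 0 lower, beside 3.81% and 0.536% of gene bodies in the genome, and the list's median difference was 5.37 points, beside 4.17 over all gene bodies.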

How the data were processed

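The authors prepared WGBS libraries from HEK293T DNA, trimmed the reads, aligned them to hg19 and called CpG methylation with BSMAP (2.90 per the submitters' processing notes). The treatment of duplicate reads was not given in the sources used here. Per the file headers, the deposited counts are reads with C and reads with C or T per CpG, with counts of G on the opposite strand. The deposited estimated count corrects the C-or-T count for C-to-T variants, and the deposited fraction is the C count over it, capped at 1. The methods state a minimum of 5 reads, but CpGs with fewer reads are listed, and 1 read in both libraries was the minimum here, with 3 and 5 as alternatives. The bounds of the deposited interval were not used.

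Features with at least 5 shared CpGs on chromosomes 1 to 22, X and Y were tested on C counts and remaining C-or-T counts. Fisher's exact test was computed with numba 0.67.0 and numpy 2.4.6 and checked against scipy 1.17.1. The thresholds of 20 points and 0.01 are those the study set for islands, with Fisher's exact test in place of its analysis of variance. Genes came from GENCODE release 44 mapped to GRCh37. Named were all HOXB genes, other genes of the interval and its neighbours, called gene bodies of a list of HOX partners, and the 5 called tiles with the largest gains. The members and lists were chosen with earlier results of these data known. Wilson and Newcombe intervals have a level of 95%, and a count of 0 allows 3 counts of the total. Scripts were tested on simulated data. Some items are not reported here.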

Additional observations from a re-analysis of the deposited data

How the results depend on the processing

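No paired analysis was possible because there was only 1 library per group, and no library could be left out for the same reason. With a minimum of 5 reads in both libraries, 25 HOXB tiles were left, of which 5 were called higher, and 1 of 6 promoters was called higher; bodies and promoters of HOXB2 and HOXB5 had too few CpGs to be tested. CpGs that went from at most 20% to at least 80% fell from 38.5% to 29.8% of low CpGs with a minimum of 3 reads and to 19.4% with 5, beside 22.2%, 11.7% and 11.1% in the genome. Promoters called higher were 2 with 500 bp either side and 2 with 250 bp either side of the canonical start, and bodies called higher were 2 over CpGs of only 1 HOXB span. The interval as a whole differed by 18.3 points with a minimum of 3 reads and by 14.3 with 5, under the limit of 20, and stayed higher in dCas9+3A+HOXA5 by Fisher's exact test. Other counts of calls were within 1.5 times of the reported ones.

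Differences that turned sign were small or uncalled, in percentage points: HOXB1 body -4.83 (minimum of 3 reads), -9.29 (minimum of 5) and -1.90 (share of methylated reads), HOXB1 promoter -3.69, -7.05 and -1.02 in the same order, HOXB9 promoter -1.31 (minimum of 3) and -2.71 (minimum of 5), the piece between HOXB1 and HOXB2 -11.8 (minimum of 5), and HOXB13 body 2.28 (share). With 500 bp either side, promoters of HOXB7, HOXB8, HOXB9 and HOXB13 stood at -3.30, -2.22, -2.03 and -1.94. With the canonical transcript, the HOXB7 body was -7.72 and its promoter -0.799, although the share of methylated reads of that body was 6.94 points higher in dCas9+3A+HOXA5. Within 250 bp, HOXB4, HOXB9 and HOXB13 stood at -0.543, -1.28 and -6.82. Of these, HOXB4 and HOXB8 were called in the wider promoter. The HOXB6 body lost its call at 17.1 and 7.81 points (minimum of 3 and 5 reads), the HOXB4 promoter at 19.5 points with padj = 0.907 in Fisher's exact test (minimum of 3), at 27.9 points with padj = 0.479 in Fisher's exact test (minimum of 5) and at 13.0 points (500 bp), and the HOXB8 body at 19.97 without CpGs with variant evidence; the cause was not tested. The Cochran-Mantel-Haenszel test called 35 tiles higher in place of 37; among bodies, promoters and pieces it changed no call, nor did the uncorrected C-or-T count, and protein-coding genes alone changed none among bodies and promoters. The windows on canonical transcripts and of 250 bp were chosen after seeing the data.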
